A study of Mus musculus with 4 samples.

Results

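Oxidative phosphorylation is carried out by 5 protein complexes of the inner mitochondrial membrane, and 94 of the 27027 gene entries in the hepatic 3′mRNA sequencing table were taken as its subunits. They were selected by gene symbol alone (Nduf followed by a, b, c, s or v and a number, Sdha to Sdhd, Uqcr, Cox4 to Cox8, Atp5, and mt-Nd, mt-Co, mt-Cytb and mt-Atp). By the GENCODE annotation (release M21, GRCm38), 81 of these genes lie in the nuclear genome and 13 in the mitochondrial genome. By symbol, 35 nuclear genes fell to complex I, 4 to complex II, 8 to complex III, 17 to complex IV and 17 to complex V. The mitochondrial genes were 7 of complex I, 1 of complex III, 3 of complex IV and 2 of complex V. The symbols also took in Atp5s, Atp5sl and Cox7a2l, which name no structural subunit, and placed Ndufa4 with complex I although its protein is a subunit of complex IV.

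The study asked which hepatic genes are expressed while the liver recovers from an overdose of acetaminophen (APAP). Fasted male C57BL/6J mice (labelled C57BL/6; 9 to 12 weeks old; 10 h without food) were injected intraperitoneally with NaCl solution or with APAP at 300 mg/kg and were analysed after 24 h or 48 h. RNA of all mice of a condition was combined, 6 mice in each control pool and 7 in each APAP pool, and each pool gave 1 library of massive analysis of cDNA ends (MACE), a method that sequences only the 3′ end of each polyadenylated transcript. The 4 libraries held 4859661 (control, 24 h), 5191990 (control, 48 h), 5698778 (APAP, 24 h) and 4938164 (APAP, 48 h) counted reads. With 1 library per condition, differences between mice could not be estimated, and APAP and control of the same time were compared without a test. All intervals given here are 95% exact (Clopper-Pearson) counting intervals for a pair of libraries and leave out any difference between pools.

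Complex I (NADH dehydrogenase) and complex II (succinate dehydrogenase) feed electrons from NADH and succinate into coenzyme Q, complex III passes them on to cytochrome c, and complex IV (cytochrome c oxidase) hands them to oxygen. The proton gradient built up on the way drives complex V, the ATP synthase. Hepatocytes are rich in mitochondria, and mitochondria are a known target of the reactive APAP metabolite formed by cytochrome P450 enzymes of the pericentral liver lobule. Every complex except complex II combines subunits from both genomes, and nuclear respiratory factor 1 (NRF1) and factors of the ETS family such as GABP are known regulators of the nuclear subunit genes.

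Promoter windows from 250 bases before to 50 bases after the annotated start were taken from RefSeq (GRCm38.p6), where 68 of the 81 nuclear genes had an entry. The letters GCNTGCGC of an NRF1 motif, with any base at N and on either strand, occurred in 24 of the 68 genes (35.3%) and in 11.2% of all 27025 genes with such a window. A longer form, the same letters preceded by GC, had been searched first and occurred in 17 of the 68 genes and in 5.19% of all genes, so the letters shown were chosen after that result was seen. The letters CCGGAAGT of an ETS motif, again on either strand, occurred in 5 of the 68 (7.35%) and in 4.31% of all genes. By complex, the NRF1 letters were found in 9 of 31 genes of complex I, 3 of 3 of complex II, 2 of 5 of complex III, 1 of 13 of complex IV and 9 of 16 of complex V. Windows of 4 genes are printed 5′ to 3′ because these genes mark the ends of the range of folds described further on: Sdha and Sdhb of complex II and Atp5c1 of complex V were among the subunits with the lowest folds, and Ndufa1 of complex I was among those with the highest. Capitals mark the NRF1 letters. Sdha had 3 matches, Sdhb had 1, Atp5c1 had 1 in the window of one of its 2 annotated starts, and the letters were not in the window of Ndufa1.
Sdha, chr13:74350191-74350490, minus strand: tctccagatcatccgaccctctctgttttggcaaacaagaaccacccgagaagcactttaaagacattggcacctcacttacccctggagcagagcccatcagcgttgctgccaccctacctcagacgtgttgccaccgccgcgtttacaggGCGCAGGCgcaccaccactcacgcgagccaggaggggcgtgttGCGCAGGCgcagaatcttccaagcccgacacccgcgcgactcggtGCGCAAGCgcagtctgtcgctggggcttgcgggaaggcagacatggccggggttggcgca
Atp5c1, chr2:10080383-10080682, minus strand: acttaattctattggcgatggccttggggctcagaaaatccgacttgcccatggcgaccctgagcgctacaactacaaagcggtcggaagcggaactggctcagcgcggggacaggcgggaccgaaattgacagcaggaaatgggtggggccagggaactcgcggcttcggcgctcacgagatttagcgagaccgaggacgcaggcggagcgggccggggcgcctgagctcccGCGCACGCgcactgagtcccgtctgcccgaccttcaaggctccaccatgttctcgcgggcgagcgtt
Sdhb, chr4:140961021-140961320, plus strand: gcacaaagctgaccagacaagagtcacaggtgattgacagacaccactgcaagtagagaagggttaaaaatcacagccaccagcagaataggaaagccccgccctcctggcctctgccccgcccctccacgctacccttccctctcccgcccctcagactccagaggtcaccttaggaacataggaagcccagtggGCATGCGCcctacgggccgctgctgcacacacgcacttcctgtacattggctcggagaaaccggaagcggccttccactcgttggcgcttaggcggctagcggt
Ndufa1, chrX:37191189-37191488, minus strand: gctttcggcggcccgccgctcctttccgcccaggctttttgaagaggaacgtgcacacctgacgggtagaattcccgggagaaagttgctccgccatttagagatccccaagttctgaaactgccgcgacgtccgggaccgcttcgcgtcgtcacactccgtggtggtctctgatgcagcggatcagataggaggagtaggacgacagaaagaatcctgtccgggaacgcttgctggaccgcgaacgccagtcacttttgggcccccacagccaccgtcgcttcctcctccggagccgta
Genes with and without the NRF1 letters had similar folds after APAP. Among those with enough reads, the median log2 fold at 24 h was -0.40 for 23 genes with the letters and -0.30 for 39 genes without, and at 48 h it was -0.55 and -0.49.

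Most subunit mRNAs were lower in the APAP pools than in the control pools at both time points. Counts were divided by size factors to give normalized reads, and 86 of the 94 genes (73 nuclear, 13 mitochondrial) averaged 20 normalized reads or more over the 4 libraries, as did 10066 of all gene entries. At 24 h the median log2 fold of APAP over control was -0.32 for the nuclear and -0.32 for the mitochondrial genes, against -0.0015 for all 10066 genes. At 48 h it was -0.49, -0.41 and -0.03. In a bulk sample, a smaller number of cells of a type and less of an RNA per cell cannot be told apart.

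**Figure D1:**
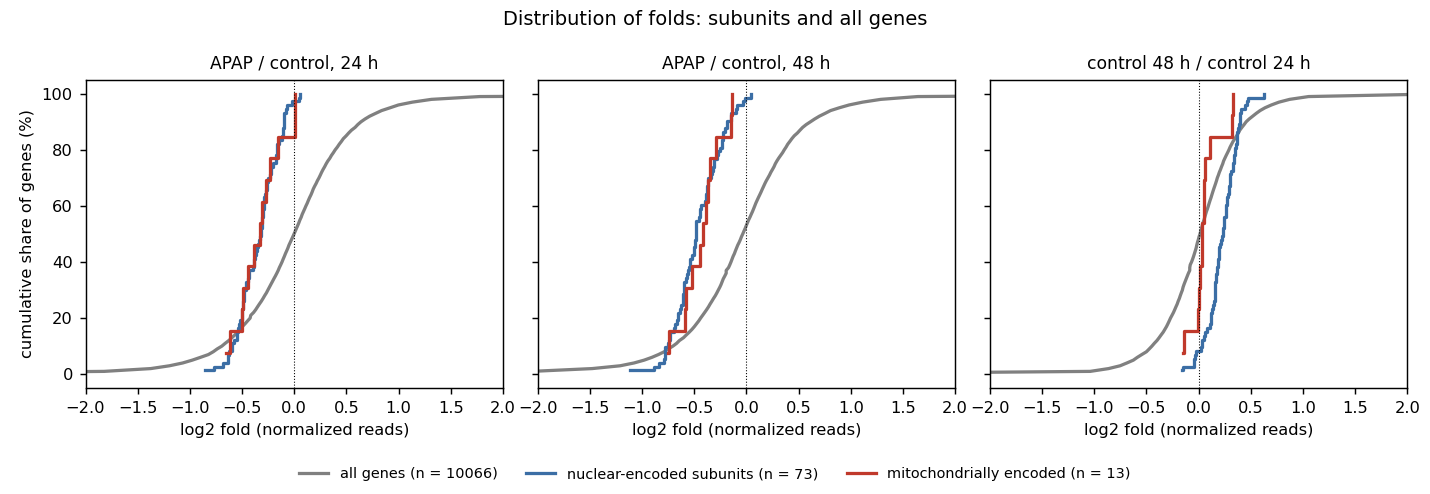
Cumulative share of genes (y axis, percent) by log2 fold of normalized reads (x axis) for 73 nuclear subunit genes (blue), 13 mitochondrial ones (red) and all 10066 genes (grey), at 24 h (left), at 48 h (middle) and between the control pools (right). Both subunit curves lie left of the grey curve after APAP, with medians of -0.32 and -0.32 at 24 h and -0.49 and -0.41 at 48 h, whereas between the control pools the blue curve lies right of it, with a median of 0.23.

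The shift was broad and of modest size. The fold was below 1 for 82 of the 86 genes at 24 h (50.3% of all genes) and for 85 at 48 h (53.0% of all genes). The counting interval lay wholly below 1 for 72 genes at 24 h (20.9% of all genes) and for 80 at 48 h (21.5% of all genes), and wholly above 1 for 0 at both times (16.5% and 14.8% of all genes). At least 1.5-fold lower were 10 genes at 24 h, a share close to the 13.3% of all genes, and 27 at 48 h, where 13.6% of all genes were. With a threshold of 5 to 4 the counts were 43 (25.7% of all genes) and 63 (26.6%), and at 2-fold 0 (4.82%) and 1 (4.83%), Atp5c1. At least 1.5-fold higher were 0 genes at either time, against 11.5% and 10.6% of all genes. Counting intervals are narrower for genes with more reads, so the shares of all genes were also taken over the 4398 that averaged 100 or more, where 34.2% and 36.0% had an interval wholly below 1. Of the 86 subunits 84 averaged that many. In the 4398 genes the median log2 fold was -0.07 and -0.10, and 57.0% and 60.4% of the folds were below 1. At least 1.5-fold lower were 15.1% and 15.8% of them, and 291 and 217 of the 4398 were at least 1.5-fold higher.

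Both APAP libraries lay below both control libraries for 76 of the 86 genes, which held for 28.0% of all 10066 genes and for 37.1% of the 4398 with more reads. The 10 others were Ndufa1, Ndufa2, Ndufa3, Sdhd, Cox4i1, Cox7a2l, Cox7b, Atp5sl, mt-Atp8 and mt-Nd3, and both APAP libraries lay above both controls for 0 of the 86 (24.4% of all genes, 21.3% of those with more reads). This order depended on the scaling. Scaling to library totals raised every log2 fold by 0.19 (24 h) and 0.27 (48 h), and it left both APAP libraries below both controls for 40 of the 86 genes (14.3% of all genes) and above both for 3 (45.6% of all genes), Ndufa1, Cox4i1 and Atp5g2. With these totals the fold was below 1 for 65 genes at 24 h (34.4% of all genes) and for 69 at 48 h (30.1%), and 2 genes at each time were at least 1.5-fold lower (8.09% and 6.84%).

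The control pools themselves differed, and they did so mainly in nuclear genes. The median log2 fold of the 48 h over the 24 h control was 0.23 for the nuclear subunits, 0.03 for the mitochondrial ones and 0.01 for all genes. The interval lay wholly above 1 for 65 of the 86 genes (11.9% of all genes) and wholly below 1 for 1 (9.17% of all genes), Uqcrc2, and 9 of the 86 folds were below 1 (48.3% of all genes). Set against the control pool of the other time, the nuclear median was -0.59 for APAP at 24 h and -0.23 for APAP at 48 h, so the direction held against either control, while the larger change at 48 h did not. With that control the fold was below 1 for 85 genes at 24 h (50.1% of all genes) and 78 at 48 h (52.5%), and at least 1.5-fold lower were 40 (15.2%) and 7 (12.5%).

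**Figure D2:**
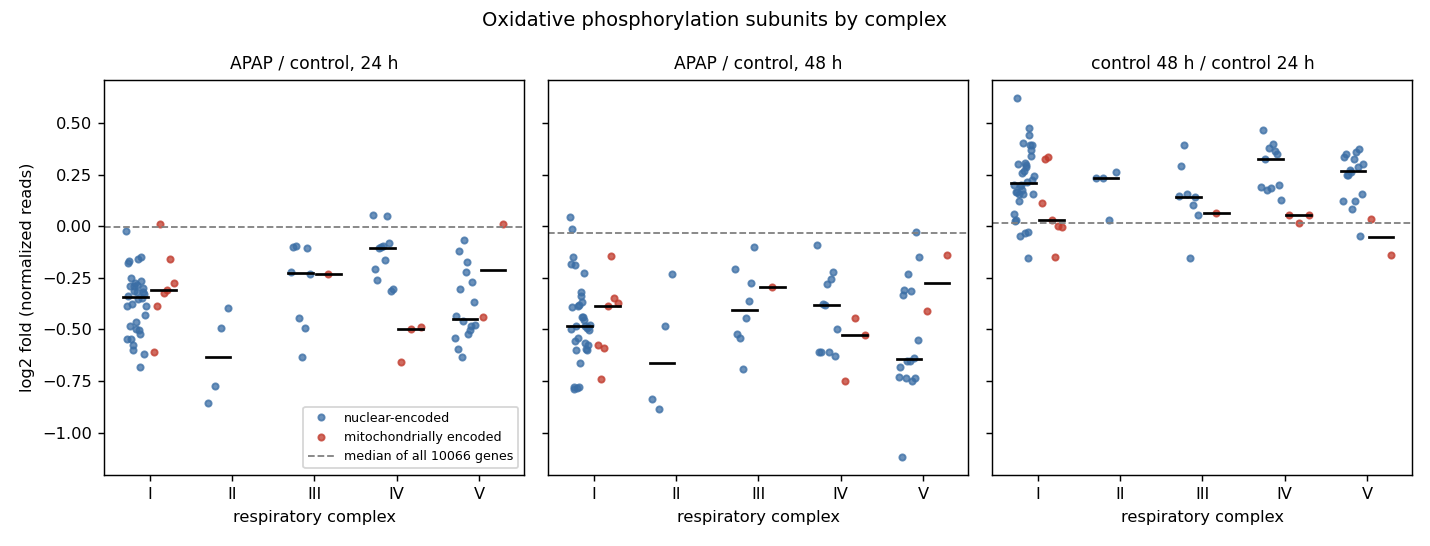
Log2 fold of normalized reads (y axis) of each subunit gene by respiratory complex (x axis) at 24 h (left), at 48 h (middle) and between the control pools (right), with blue points for nuclear and red points for mitochondrial genes, black bars for medians and a dashed line for the median of all 10066 genes. Nuclear complex II lies lowest, with medians of -0.63 and -0.66, and nuclear complex IV highest, with -0.10 (0.08 when scaled to library totals) and -0.38, but at 48 h complexes II and V and complexes III and IV lie close together and change places under some settings.

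Complex I takes electrons from NADH through a peripheral arm that carries the flavin and the iron-sulfur clusters. Of its 35 nuclear genes 34 had enough reads, and their median log2 fold was -0.34 at 24 h and -0.48 at 48 h. The fold was below 1 for 34 and 33 of them (50.3% and 53.0% of all genes), and 3 and 8 were at least 1.5-fold lower (13.3% and 13.6% of all genes), which at 24 h is a smaller share than that of all genes. Among the conserved subunits of this arm, Ndufs1, which carries iron-sulfur clusters, held 238 and 213 normalized reads in the controls at 24 h and 48 h and 148 and 156 in the APAP libraries. Both APAP libraries were below both controls, with Ndufs1 1.60-fold lower at 24 h (interval 1.30 to 1.97) and 1.37-fold lower at 48 h (1.11 to 1.69). Ndufs8, another iron-sulfur subunit, held 786 and 918 normalized reads in the controls and 511 and 655 in the APAP libraries, again without overlap, and was 1.54-fold and 1.40-fold lower.

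Ndufs3, Ndufs7, Ndufv1 and Ndufv2, also conserved subunits of the arm, had folds nearer to 1 at 24 h. Ndufv1, which binds NADH and the flavin, held 781 and 1027 normalized reads in the controls and 622 and 688 in the APAP libraries, folds of 0.796 and 0.670. The folds were 0.803 and 0.660 for Ndufs7 and 0.741 and 0.706 for Ndufv2, and all their intervals lay below 1. Ndufs3 had a fold of 0.833 with an interval of 0.687 to 1.01 at 24 h, and of 0.675 at 48 h.

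Among the accessory subunits, which surround this core, the values spread from clearly lower to level. Ndufb10, of the membrane arm, held 1301 and 1495 normalized reads in the controls and 859 and 868 in the APAP libraries, and was 1.51-fold lower at 24 h (1.39 to 1.65) and 1.72-fold lower at 48 h (1.58 to 1.87). Ndufa4 held 1514 and 2332 normalized reads in the controls and 1241 and 1352 in the APAP libraries, and was 1.22-fold and 1.72-fold lower. Its control pools were 1.54 times apart, which made it the 1 gene among the 86 that was at least 1.5-fold higher in the 48 h control (6.13% of all genes), and 0 of the 86 were at least 1.5-fold lower there (6.04% of all genes). The control pools of Ndufa4 thus lay further apart than APAP and control at 24 h, though less far than at 48 h.

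Ndufa1 and Ndufa2, small accessory subunits, lay at the upper end. Ndufa1 held 578 and 602 normalized reads in the controls and 568 and 620 in the APAP libraries, which overlap, and its folds were 0.984 (0.875 to 1.11) and 1.03 (0.919 to 1.16). Ndufa2 held 1535 and 1565 normalized reads in the controls and 1359 and 1550 in the APAP libraries, with folds of 0.885 (0.823 to 0.952) and 0.990 (0.922 to 1.06). Scaled to library totals, both had folds above 1 at both times.

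**Figure D3:**
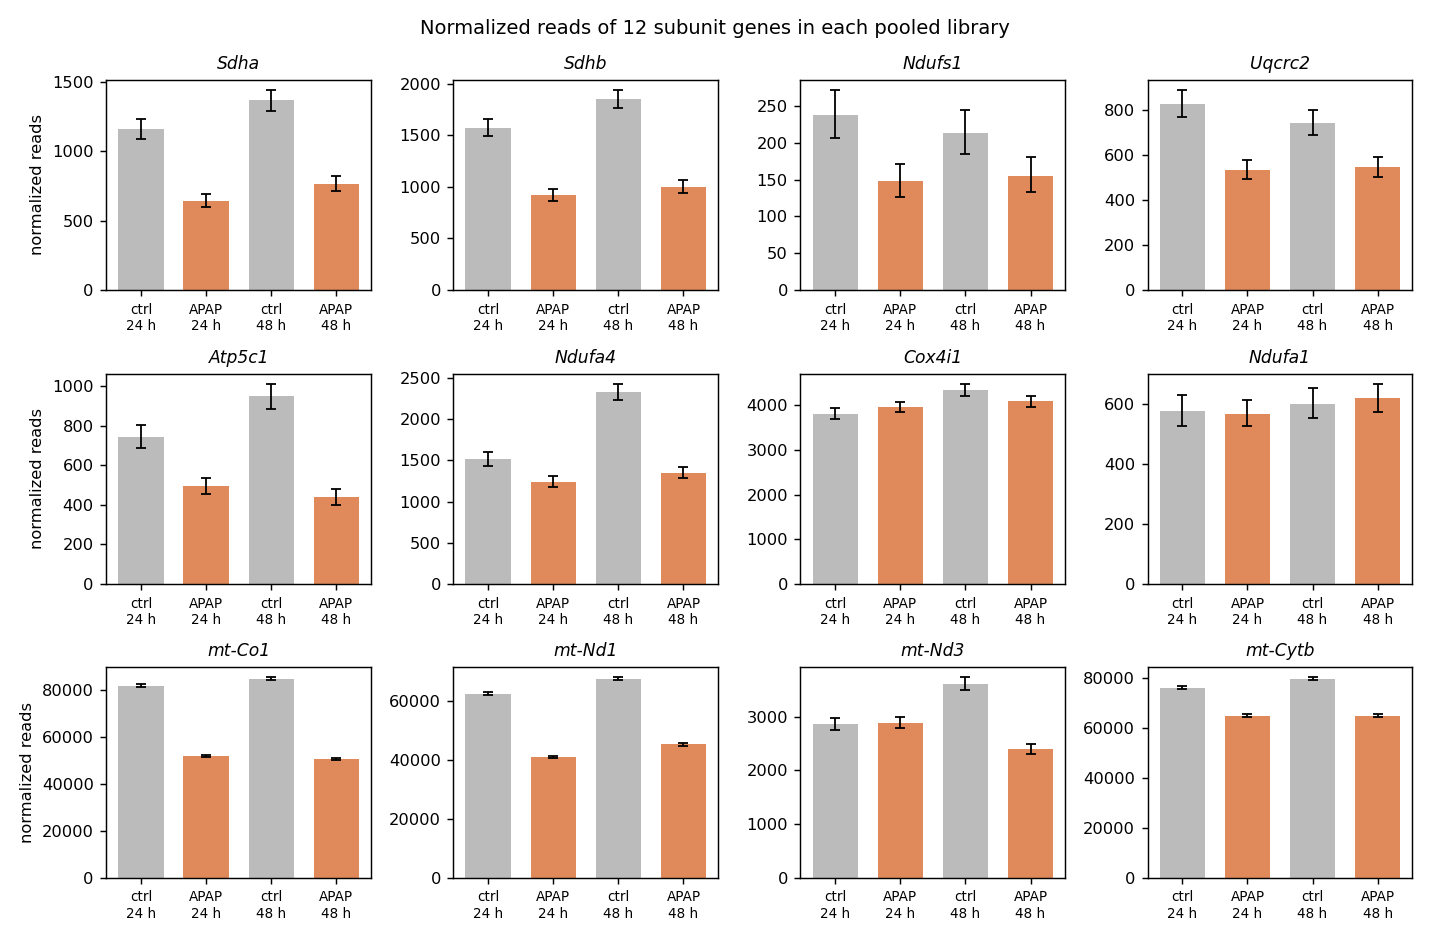
Normalized reads (y axis, from 0) of 12 subunit genes in each of the 4 pooled libraries, grey for control and orange for APAP, with 95% exact Poisson counting intervals as error bars. Both APAP bars stand below both control bars for Sdha, Sdhb, Ndufs1, Uqcrc2, Atp5c1, Ndufa4, mt-Co1, mt-Nd1 and mt-Cytb, but not for Cox4i1, Ndufa1 and mt-Nd3.

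Complex II, which is also an enzyme of the TCA cycle and has no mitochondrial subunit, had medians of -0.63 at 24 h and -0.66 at 48 h over its 4 genes, the lowest among the nuclear genes of the 5 complexes. At 48 h complex V was close to it, and without genes that share a 3′ end complex V lay lower (-0.20 relative to all nuclear subunits, against -0.18). Sdha, the flavoprotein that oxidizes succinate (chr13:74322254-74350280, minus strand), held 1163 and 1367 normalized reads in the controls and 642 and 765 in the APAP libraries. Sdhb, the iron-sulfur subunit (chr4:140961203-140979193, plus strand), held 1573 and 1851 in the controls and 921 and 1003 in the APAP libraries. In both genes the APAP libraries were far below the controls, and the gap was wider than that between the controls. Sdha was 1.81-fold lower at 24 h (1.65 to 1.99) and 1.79-fold lower at 48 h (1.64 to 1.95), and Sdhb 1.71-fold (1.58 to 1.85) and 1.84-fold lower (1.71 to 1.99). These were the lowest folds at 24 h among the 86 genes.

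The membrane anchors of complex II had folds nearer to 1. Sdhc held 751 and 767 normalized reads in the controls and 533 and 548 in the APAP libraries, 1.41-fold and 1.40-fold lower. Sdhd held 578 and 694 in the controls and 439 and 592 in the APAP libraries, so that its 48 h APAP library lay above the 24 h control, and it was 1.32-fold lower at 24 h and 1.17-fold lower at 48 h (1.05 to 1.31).

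Complex III had nuclear medians of -0.23 at 24 h and -0.41 at 48 h over 8 genes, and in all 8 both APAP libraries lay below both controls (28.0% of all genes), which held for 3 of the 8 with library totals (14.3% of all genes). Uqcrc2, a core protein of the complex, held 825 and 742 normalized reads in the controls and 531 and 545 in the APAP libraries, and was 1.55-fold lower at 24 h (1.39 to 1.73) and 1.36-fold lower at 48 h (1.22 to 1.52). Uqcrc1, the other core protein, held 877 and 977 in the controls and 643 and 605 in the APAP libraries, 1.36-fold and 1.62-fold lower. Uqcrfs1, the Rieske iron-sulfur protein, was 1.41-fold and 1.29-fold lower. The small subunit Uqcrq had a fold of 0.852 at 24 h and 0.934 (0.893 to 0.977) at 48 h, among the highest at that time.

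Against the control of the same time, the nuclear genes of complex IV were close to level at 24 h and lower at 48 h. Summed over those with enough reads, they held 17673 and 21182 normalized reads in the controls and 16349 and 16454 in the APAP libraries. The times thus differed mainly in the controls. Against the control of the other time, complex IV was 0.15 above a nuclear median of -0.59 at 24 h and 0.08 above one of -0.23 at 48 h, so the order of the times turned. Of 17 genes 11 had enough reads, with a median of -0.10 at 24 h, which turned to 0.08 with library totals, and of -0.38 at 48 h. Over all nuclear subunits the median was -0.32 at 24 h, and complex IV was 0.21 above it (complex III 0.09 above). With both control pools together complexes III and IV were both 0.18 above. At 48 h complex IV was 0.10 and complex III 0.08 above, an order that turned without genes that name no structural subunit (0.046 and 0.08) and without genes that share a 3′ end (0.10 and 0.20). Between the controls, the complex IV genes in the 48 h pool were further above the 24 h control (median 0.33) than the nuclear genes of the other complexes. The interval lay wholly above 1 in 11 of 11 complex IV genes (11.9% of all genes). It did so in 25 of 34 genes of complex I, 3 of 4 of complex II, 5 of 8 of complex III and 13 of 16 of complex V. Cox4i1, a regulatory subunit, held 3807 and 4347 normalized reads in the controls and 3949 and 4081 in the APAP libraries, which overlap, with folds of 1.04 (0.992 to 1.08) and 0.939 (0.899 to 0.980). Cox7a2l, a factor of respiratory supercomplexes, had folds of 1.03 (0.903 to 1.18) and 0.837 (0.738 to 0.949).

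The remaining nuclear genes of complex IV also had lower folds at 48 h than at 24 h when set against the control of the same time. Cox5a held 1244 and 1720 normalized reads in the controls and 1079 and 1127 in the APAP libraries, folds of 0.868 and 0.655. Cox5b held 1141 and 1432 in the controls and 952 and 939 in the APAP libraries, folds of 0.834 and 0.655. In both genes the 24 h control lay nearer to its APAP library than to the 48 h control. Cox6c had folds of 0.936 and 0.823, Cox7c of 0.806 and 0.646, and Cox8a of 0.810 and 0.707.

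Several complex IV subunits have tissue isoforms, of which the form known from liver or from all tissues carried the reads. Cox6a1, Cox6b1 and Cox7a2 had folds of 0.931, 0.932 and 0.893 at 24 h and of 0.769, 0.768 and 0.656 at 48 h, and Cox7b had 0.944 and 0.856. Their partners known from muscle, heart, lung or testis stayed under the filter. Cox4i2 had 0 and 2 counted reads in the controls and 4 and 3 in the APAP libraries, Cox6a2 had 1 read and Cox7b2 had 1 read in all libraries together, and Cox8b had 2. Cox6b2 had 4 and 3 counted reads in the controls and 7 and 1 in the APAP libraries, and Cox7a1 had 2 and 13 against 4 and 14. Where both libraries of a pair held 3 reads or fewer, no fold was taken.

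Complex V makes ATP in its F1 head, which is held by a peripheral stalk and turned by a ring of c subunits. Its 16 nuclear genes with enough reads had medians of -0.45 and -0.64, and 2 and 9 of them were at least 1.5-fold lower, where 13.3% and 13.6% of all genes were, so that the count at 24 h is no larger a share than that of all genes. In the head, Atp5c1, the central shaft (chr2:10056016-10080510, minus strand), held 742 and 948 normalized reads in the controls and 492 and 437 in the APAP libraries. It was 1.51-fold lower at 24 h (1.35 to 1.69) and 2.17-fold lower at 48 h (1.94 to 2.43), the lowest fold of the 86 genes at that time. Both differences exceeded the 1.28-fold between the control pools.

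Atp5a1 and Atp5b form the catalytic hexamer. Atp5a1 held 3690 and 4011 normalized reads in the controls and 2533 and 2419 in the APAP libraries, 1.46-fold and 1.66-fold lower. Atp5b held 4090 and 5159 in the controls and 3024 and 3217 in the APAP libraries, 1.35-fold and 1.60-fold lower. The smaller head subunits Atp5d and Atp5e had folds of 0.919 and 0.810 at 24 h and of 0.795 and 0.808 at 48 h.

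In the stalk, Atp5f1 held 1413 and 1708 normalized reads in the controls and 911 and 1025 in the APAP libraries, 1.55-fold and 1.67-fold lower. Atp5o, also of the stalk, had folds of 0.775 and 0.682. The 3 genes for the c subunit, whose mature protein is the same, had different folds. Atp5g1 had 0.727 and 0.635, Atp5g3 had 0.857 and 0.637, and Atp5g2 had 0.956 (0.824 to 1.11) and 0.852. Atp5g2 shares its 3′ end with Gm10175 and Gm10231, and Atp5g1 shares part of its own with 2 other genes. Gm10175 held 363 and 408 counted reads in the controls and 486 and 398 in the APAP libraries. Atp5g2 held 319 and 358 against 407 and 349, so the folds of Atp5g2 may not be its own. The 3′ end of Atp5l, a membrane subunit with folds of 0.830 and 0.981 (0.838 to 1.15), is shared with 12 other genes or pseudogenes, so its reads may not be its own.

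Across all nuclear genes, a list of 25 principal subunits (catalytic, redox and long-known structural ones) had medians of -0.44 and -0.57, against -0.29 and -0.42 for the 48 others. The list was drawn with earlier results of these data known. It holds Cox6c, Cox7c and Cox8a but leaves out the head subunits Atp5d and Atp5e, so the gap depends on this choice of genes. The principal subunits also had longer transcripts, with a median of 1231 bases against 713.5 bases. Over the 73 nuclear genes transcript length and log2 fold had a Spearman correlation of -0.511 at 24 h, -0.253 at 48 h and -0.003 between the control pools. These are descriptions of genes in the same 4 libraries, and the part of transcript length in the lower folds was not tested.

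The mitochondrial genes took 9.25% (control, 24 h) and 9.70% (control, 48 h) of all reads and 7.78% (APAP, 24 h) and 8.23% (APAP, 48 h). The summed nuclear subunits took 1.61% and 1.87% in the controls and 1.48% and 1.63% in the APAP libraries. In normalized reads the mitochondrial sum was 0.738 times the control at 24 h and 0.705 times at 48 h, and the nuclear sum 0.809 and 0.728 times. The sum over all 10066 genes was itself 0.877 and 0.829 times the control.

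Of the 13 mitochondrial genes 11 had an interval wholly below 1 at each time (20.9% and 21.5% of all genes). Among genes that averaged 100 or more normalized reads the shares were 34.2% and 36.0%. Most mitochondrial genes had far more reads than that, so their intervals are narrow. mt-Co1, the catalytic subunit of complex IV, held 81854 and 84880 normalized reads in the controls and 51915 and 50489 in the APAP libraries, and was 1.58-fold lower at 24 h (1.56 to 1.59) and 1.68-fold lower at 48 h (1.66 to 1.70). mt-Nd1, of complex I, held 62588 and 67622 in the controls and 40965 and 45377 in the APAP libraries, 1.53-fold and 1.49-fold lower. For both genes the controls lay close together and both APAP libraries lay well below them.

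mt-Cytb, the cytochrome b of complex III, held 76242 and 79759 normalized reads in the controls and 64999 and 65012 in the APAP libraries, 1.17-fold and 1.23-fold lower. mt-Co2 and mt-Co3, the other mitochondrial subunits of complex IV, had folds of 0.708 and 0.713 at 24 h and of 0.735 and 0.695 at 48 h. The mitochondrial genes of complex IV thus had a median of -0.50 at 24 h where the nuclear genes had -0.10, and of -0.53 against -0.38 at 48 h, the time at which the control of the nuclear genes was the higher of both controls. mt-Nd3, of complex I, held 2867 and 3612 normalized reads in the controls and 2889 and 2402 in the APAP libraries, so that its fold was near 1 at 24 h (1.01, 0.957 to 1.06) and below 1 at 48 h (0.665, 0.631 to 0.700).

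Most of the remaining mitochondrial genes also had folds below 1. mt-Nd2 had folds of 0.766 and 0.599, mt-Nd4 of 0.799 and 0.765, mt-Nd5 of 0.896 and 0.786, and mt-Atp6 of 0.737 and 0.752. mt-Nd6, the subunit encoded on the other strand beside mt-Nd5, whose end it overlaps, had folds of 0.828 and 0.773. Whether the counting used strand is not given in the sources used here. mt-Nd4l, at 0.807 (0.676 to 0.964) and 0.904 (0.753 to 1.09), and mt-Atp8, at 1.01 (0.590 to 1.74) and 0.909 (0.505 to 1.64), had few reads and overlap the neighbouring mt-Nd4 and mt-Atp6.

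**Figure D4:**
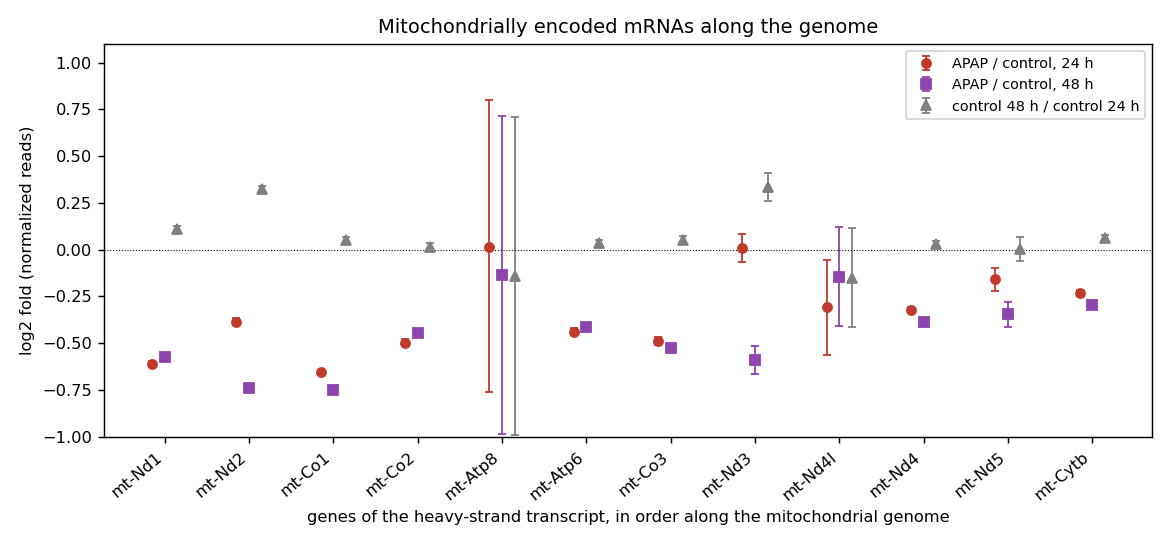
Log2 fold of normalized reads (y axis) of the 12 mitochondrial mRNAs of the heavy-strand transcript in their order along the mitochondrial genome (x axis, without coordinates), with red circles for 24 h, purple squares for 48 h, grey triangles for the control pools and 95% exact counting intervals as bars. The folds after APAP lie lower at the mt-Nd1 end (-0.61 and -0.58) than at the mt-Cytb end (-0.23 and -0.29), and the control pools do not show this order.

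The mitochondrial folds followed the order of the genes in part. All heavy-strand mRNAs are cut from a single long precursor, which starts upstream of the rRNAs and runs from mt-Nd1 to mt-Cytb. Over the 12 mRNAs the Spearman correlation of position with log2 fold was 0.615 at 24 h, 0.608 at 48 h and -0.308 between the control pools. Without mt-Atp8 and mt-Nd4l it was 0.758, 0.770 and -0.333 over 10 genes. The genes share the same 4 libraries and the same precursor, so these values are descriptions. The rRNAs at the head of the precursor had folds of 0.576 and 0.946 (mt-Rnr1) and of 0.821 and 0.746 (mt-Rnr2), and mt-Rnr1 differed as much between the control pools (0.597).

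Some reads cannot be assigned to one gene. Near-identical nuclear copies of 7 mitochondrial genes were counted as genes of their own, and of these the copies of mt-Co1 held 84179 and 93535 counted reads in the controls and 71361 and 63721 in the APAP libraries, with folds of 0.635 and 0.596 beside 0.634 and 0.595 for mt-Co1 itself. Other genes agreed less well with their copies. With the copy reads added, the folds were 0.953 and 0.684 for mt-Nd3 and 0.757 and 0.764 for mt-Nd4l. Their own folds were 1.01 and 0.665 (mt-Nd3) and 0.807 and 0.904 (mt-Nd4l). For mt-Nd2, mt-Co2, mt-Co3 and mt-Atp6 the folds with copies stayed close to those of the gene. How reads with several matches were counted is not given in the sources used here. In all, 30 of the 94 genes share their last 300 bases in part with another gene (at least 95% identity over at least 100 bases), and 14 have an entry joined with reads shared with an overlapping gene. Over the 57 genes that passed the filter and shared no 3′ end, the fold was below 1 for 54 at 24 h and 56 at 48 h.

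The 8 genes under the filter were the 6 isoforms of complex IV already given, Ndufb8 and Atp5s. Ndufb8, an accessory subunit of complex I, had 16 and 20 counted reads in the controls and 9 and 12 in the APAP libraries, while the overlapping entry Gm20538, which shares its 3′ end, held 963 and 1418 counted reads in the controls and 1061 and 860 in the APAP libraries. The folds of Gm20538 were 0.825 and 0.530. Atp5s had 11 and 14 counted reads in the controls and 30 and 12 in the APAP libraries, a fold at 24 h of 2.04 with an interval of 0.995 to 4.52. The reads of Ndufa13, a complex I subunit without an entry under its own symbol, are held by the overlapping entry Yjefn3, with folds of 0.760 and 0.658.

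Genes of other mitochondrial functions served as a comparison. The TCA cycle, which supplies NADH and succinate, had medians of -0.40 and -0.50 over 23 genes, among them Sdha to Sdhd, which are subunits as well. At least 1.5-fold lower were 8 of them at 24 h (13.3% of all genes) and 9 at 48 h (13.6%), Sdha and Sdhb at both times included, and 0 were at least 1.5-fold higher (11.5% and 10.6%). Citrate synthase, Cs, held 498 and 554 counted reads in the controls and 349 and 242 in the APAP libraries, with folds of 0.525 (0.457 to 0.603) and 0.382 (0.327 to 0.445). Dlat, of the pyruvate dehydrogenase complex, had folds of 0.461 and 0.577.

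A list of 12 further subunits and electron carriers outside the symbol rule, apart from Ndufa4, had medians of -0.29 and -0.45. At least 1.5-fold lower were 2 genes at 24 h (16.7%, against 13.3% of all genes) and 4 at 48 h (33.3%, against 13.6%). The share at 24 h is close to that of all genes. Gpd2, which feeds electrons from glycerol 3-phosphate into coenzyme Q, had folds of 0.551 and 0.472, and Etfa, which carries electrons from fatty acid oxidation, 0.669 and 0.588. Atpif1, the inhibitor of the ATP synthase, had 0.631 (0.497 to 0.799) at 24 h and 1.03 at 48 h. Cyc1, the cytochrome c1 of complex III, had 0.700 and 0.640, which resembles the other core proteins of its complex, whereas Cycs, the soluble cytochrome c, had a fold within 0.868 to 1.16 at 24 h and of 0.831 at 48 h.

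Coenzyme Q synthesis (11 genes) had medians of -0.17, or 0.01 with library totals, and -0.40. Coq8a, a regulator of this pathway, held 1517 and 1542 counted reads in the controls and 547 and 839 in the APAP libraries, with folds of 0.270 (0.245 to 0.298) and 0.476 (0.437 to 0.518), lower than any subunit at 24 h. Coq4 had log2 folds of -0.93 and -0.65, Coq2 and Coq6 were at -0.70 and -0.70 at 48 h, and Coq10b was the 1 gene at least 1.5-fold higher, at 0.66 at 24 h. Coq6 and Coq10b lie outside the rule for named genes and were named after their values were seen.

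**Figure D5:**
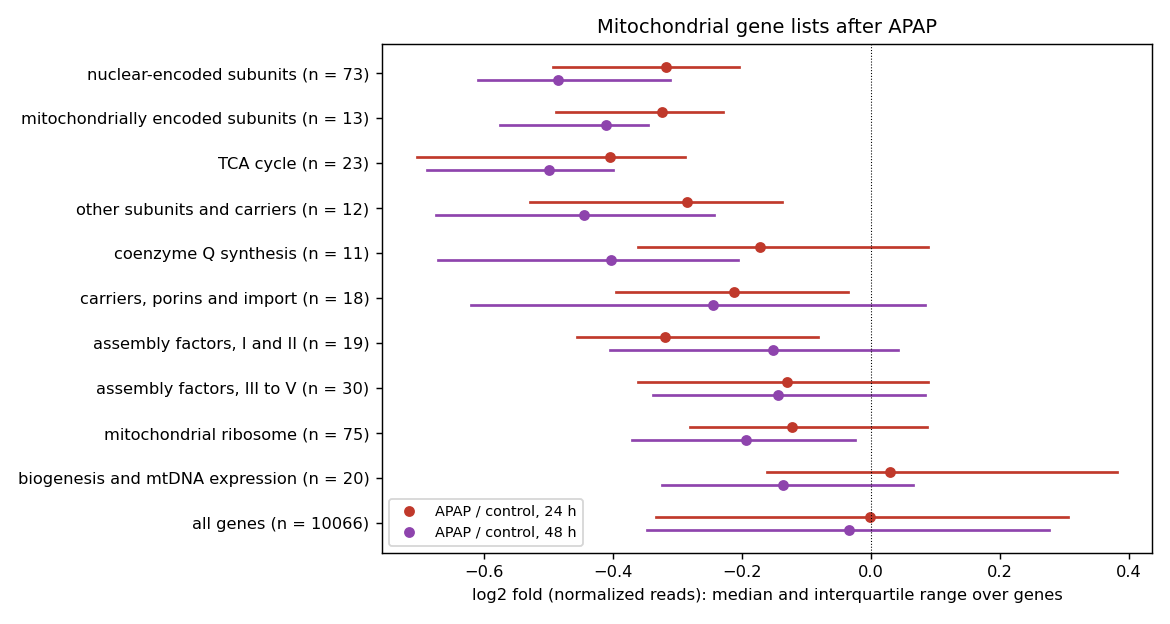
Median (point) and interquartile range over genes (line) of the log2 fold of normalized reads (x axis) for the subunits, 8 other mitochondrial gene lists and all 10066 genes (y axis, number of genes in brackets), red for 24 h and purple for 48 h. The TCA cycle (-0.40 and -0.50) lies at or below the subunits, and the mitochondrial ribosome (-0.12 and -0.19, or 0.06 and 0.07 with library totals) and biogenesis genes (0.03 and -0.14, or 0.22 and 0.13 with library totals) lie nearer to all genes.

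Genes that build or regulate the complexes had medians nearer to that of all genes than the subunits had, apart from the assembly factors of complexes I and II at 24 h. The 19 assembly factors of complexes I and II had medians of -0.32 and -0.15 (0.11 at 48 h with library totals), and those of complexes III to V, 30 genes, had -0.13 and -0.14 (0.06 and 0.12 with library totals). In the first list Nubpl, an iron-sulfur factor of complex I, was at -0.82 and -0.70, Tmem126b at -0.58 at 24 h and Ndufaf2 at -0.67 at 48 h. In the second list the largest changes at 24 h were 0.58 (Atpaf1) and -0.58 (Higd2a), both under 1.5-fold, and at 48 h Cox11 (-0.95) and Coa4 (-0.72) were lower and Sco1 (0.61, named after its value was seen) was higher.

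The mitochondrial ribosome, which translates the mitochondrial mRNAs, had medians of -0.12 and -0.19 over 75 genes (0.06 and 0.07 with library totals), with 4 and 6 genes at least 1.5-fold lower, a smaller share than that of all genes. The lowest log2 folds were -0.72 (Mrpl23) and -0.69 (Mrpl15) at 24 h and -0.75 (Mrpl49) and -0.65 (Mrpl16) at 48 h. Regulators of biogenesis and mtDNA expression had medians of 0.03 and -0.14 over 20 genes. The coactivator Pprc1 had 12 and 22 counted reads in the controls and 36 and 32 in the APAP libraries, a fold of 2.25 (1.14 to 4.74) at 24 h. Mterf3 and Tefm, factors of mitochondrial gene expression, were lower, with folds of 0.508 (0.277 to 0.912) for Mterf3 at 24 h and 0.536 (0.286 to 0.979) for Tefm at 48 h. Gabpa, a subunit of the ETS factor GABP, was at 1.54 (0.921 to 2.62) at 48 h. Tfam, which packages and transcribes mtDNA, had folds of 1.14 (0.855 to 1.53) and 0.832 (0.626 to 1.11), and Nrf1, the gene of the NRF1 factor, 0.949 (0.631 to 1.44) and 1.22 (0.811 to 1.85). Among carriers, porins and import genes (18, medians -0.21 and -0.25, the latter 0.02 with library totals), the citrate carrier Slc25a1 was at 0.602 and 0.530 and the porin Vdac1 at 0.582 and 0.631, while the ADP/ATP carrier Slc25a4 was at 0.821 (0.434 to 1.56) and 1.96 (1.15 to 3.45).

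The cell type markers in the same libraries moved as well, and their part in the lower subunit folds was not tested. All 10 listed hepatocyte markers had enough reads, and their sum was 546770 and 562952 normalized reads in the controls and 485653 and 520515 in the APAP libraries. Their medians were -0.24 and -0.05, or -0.05 and 0.22 with library totals, so the direction at 48 h depended on the scaling. The interval lay wholly below 1 for 7 of the 10 at each time (20.9% and 21.5% of all genes). It lay wholly above 1 for 3 at 24 h and 2 at 48 h (16.5% and 14.8%). Of 12 pericentral markers 10 had enough reads, all 10 had a fold below 1 at both times, and their sum was 26100 and 27031 in the controls and 9212 and 8153 in the APAP libraries. Glutamine synthetase, Glul, had folds of 0.107 and 0.085 (control pools 1.03 times apart), and 0 of the pericentral markers were without reads in any library. The 12 periportal markers had medians of -0.12 (0.067 with library totals) and 0.10, but single genes moved in both directions. Their sum was 33986 and 41997 normalized reads in the controls and 24937 and 36196 in the APAP libraries. At least 1.5-fold lower were 4 of the 12 at 24 h and 1 at 48 h (13.3% and 13.6% of all genes). At least 1.5-fold higher were 2 at 24 h and 2 at 48 h (11.5% and 10.6% of all genes).

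The monocyte and neutrophil markers that passed the filter were higher. The filter is a mean over all 4 libraries, so a marker could pass through its APAP libraries alone. The rise of such markers is therefore in part a result of the selection. Of 12 monocyte and neutrophil markers 5 had enough reads, with a sum of 169 and 173 normalized reads in the controls and 670 and 1060 in the APAP libraries, and Csf3r, Cxcr2 and Il1b had 0 reads in at least 1 library. The medians were -0.05 (0.13 with library totals) and 0.47 for 12 Kupffer cell markers, 0.12 and 0.08 for 11 endothelial markers, -0.06 (0.13 with library totals) and 0.74 for 12 stellate cell markers and 1.46 and 0.97 for 2 cholangiocyte markers. Erythroid markers were at -0.55 and -0.98 over 5 genes, and they differed by -0.59 between the control pools. Of the lymphocyte and the cell cycle markers 0 reached the filter.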

How the data were processed

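Hepatic RNA was pooled per condition (6 or 7 mice) and sequenced as 1 MACE library per pool. The authors digested the RNA with DNase, eliminated duplicate reads by unique molecular identifiers, removed low-quality bases by cutadapt and poly(A)-tails by a script of their own, aligned the reads to mm10 (GRCm38) and quantified with HTSeq (tool names also from the submitters' processing notes; versions not given in the sources used here). The deposited counts of reads per gene were used without change. The same deposited table holds 4 columns of scaled values (RPM) as well as ratios, p-values and FDR values of the authors' own comparisons, which were not used. The labels gave each library's treatment and time.

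Counts were divided by size factors from DESeq2 1.42.0 (median of ratios, 16338 genes with reads in all libraries, R 4.3.3), which were 0.880 and 0.933 for the controls and 1.17 and 1.07 for APAP at 24 h and 48 h. Totals ranged from 4859661 to 5698778 reads. Folds compare APAP with the control of the same time, with counts of 3 or fewer set to 3 and no pseudocount. Genes that averaged 20 normalized reads or more entered medians and counts, and 1.5-fold was the threshold. For each fold, the 95% Clopper-Pearson limits of the APAP part of a gene's reads in both libraries were scaled by the size factors, so intervals cover counting error only. No count model was fitted. Computation used Python 3.11.15 with numpy 2.4.6, scipy 1.17.1, pandas 2.3.3 and matplotlib 3.10.9, and the procedure was tested on simulated data.

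Of 27027 entries 26853 were matched to GENCODE M21 by identifier, and an entry that joined several genes was matched by its own gene. Shared 3′ ends were searched with blastn 2.17.0. Transcript length is that of the principal transcript in GENCODE. Promoter sequences are from RefSeq (GRCm38.p6).

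The members and the lists were chosen with earlier results of these data known. Named were all mitochondrial genes, the principal subunits, the tissue isoforms and the 5 highest and 5 lowest folds per time. Also named were all genes under the filter and the 2 largest changes per time in each other list. Some exceptions are marked in the text. Other genes were named outside this rule without a mark, among them Atp5d, Atp5e, Cyc1, Cycs, Tfam, Nrf1 and Glul. The values of 1 of the principal subunits are not reported here. Alternatives were edgeR 4.0.16 TMM factors, library totals with and without mitochondrial genes, the other or both control pools, other filters, floors and thresholds, leaving out Atp5s, Atp5sl and Cox7a2l, and, added after seeing the data, leaving out genes with a shared 3′ end and the longer NRF1 letters.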

Additional observations from a re-analysis of the deposited data

How the results depend on the processing

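The lower nuclear median kept its direction under every alternative tried. With library totals it was -0.13 (24 h) and -0.22 (48 h), and it was -0.16 and -0.25 with totals without the mitochondrial genes and -0.59 and -0.23 with the control pool of the other time. The number of subunits at least 1.5-fold lower at 24 h (10) and 48 h (27) was the least stable value: 2 and 2 with library totals, 2 and 3 with totals without the mitochondrial genes, 40 and 7 with the other control pool, 23 and 12 with both control pools, 0 and 1 at 2-fold and 43 and 63 at 5 to 4, and 17 at 48 h without genes that share a 3′ end, where fewer genes were counted. With library totals 65 and 69 of the 86 folds were below 1, and with the other control pool 85 and 78.

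The mitochondrial median minus the nuclear median (-0.0063 at 24 h, 0.07 at 48 h) changed sign at both times with the other control pool (0.23 at 24 h and -0.15 at 48 h) and with both pools (0.15 and -0.0146), and at 24 h without genes that share a 3′ end (0.14, and 0.12 at 48 h). The cause was not tested, and no difference between the genomes can be read from it. Complex III minus all nuclear subunits at 24 h moved from 0.09 to 0.18 with both control pools. Without a filter 1 gene was at least 1.5-fold higher at 24 h (Atp5s) and 2 were at least that far apart between the control pools, where the count was 0 at 2-fold and 22 at 5 to 4. To judge medians, the medians over genes of the lower and upper counting limits were used, which are no interval of the median itself. Counts of genes have no interval and were judged by a change of more than 1.5-fold. By these rules TMM factors, a floor of 10 reads and a minimum mean of 100 moved none of these values. Leaving out the genes that name no structural subunit moved none either.

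No paired analysis was possible because each condition was 1 pool of mice with 1 library, and no value here comes from a test. As each condition has 1 library, none was left out, and a fit of treatment over both times was not run. At this depth the intervals of genes with few reads, such as mt-Atp8 and Atp5sl, held 1 at both times.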
